A study of Mus musculus with 4 samples.

Results

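The interleukin-1 family receptor cluster on mouse chromosome 1 was examined through the 4 members that the deposited table lists by name, Il1r2, Il1rl1, Il18r1 and Il18rap, out of 282 genes in all. Regulatory T cells (Tregs), the Foxp3-expressing CD4 lineage that holds immune responses in check, came from spleen and lymph nodes of male Foxp3RFP-Cre.RosaYFPMll1fl/fl mice, 6 to 8 weeks old. Every cell sorted was RFP-positive. By the strain name, all came from animals with floxed Mll1 alleles (gene symbol Kmt2a, a histone H3 lysine 4 methyltransferase) and Cre expressed from Foxp3. RFP+YFP+ cells carry the label MLL1KO, and RFP+YFP- cells of the same line carry the label WT. YFP, the Rosa reporter, marks cells in which Cre had acted. There were 2 libraries per group, numbered mouse 1 and mouse 2 in both groups, and no label says whether a number is 1 animal or a pool. The comparison asks how loss of MLL1 bears on the activation and specialization of Tregs. The groups were split by YFP, so loss of MLL1 and other traits that go with Cre action cannot be told apart.

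The table holds genes that had already passed the authors' thresholds on these 4 libraries (adjusted p under 0.05 and a log2 fold change beyond 1 in either direction). A difference between the groups was therefore a condition for being listed, and the differences below are a description of the members and no separate evidence. Foxp3, Kmt2a and the other genes outside the list have no value here, so neither the Treg label nor the deletion was checked by them. Of 10 Treg identity genes, Gpr83 was listed, with 5443 and 4259 normalized counts in YFP-positive Tregs of mice 1 and 2 and 1752 and 1442 in YFP-negative Tregs. Reads over the listed genes, inferred from the steps of the values, ranged from 196337 to 329350 per library. These sums are not the depth of the libraries, which is unknown.

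Receptors of the interleukin-1 family share immunoglobulin-like domains outside the cell, and most carry a Toll/interleukin-1 receptor domain inside it that recruits MyD88 and IRAK kinases and activates NF-kappaB and MAP kinases. Il1r2 encodes a decoy that binds interleukin-1 and lacks that signalling domain. Il1rl1 encodes ST2, the interleukin-33 receptor, and marks Tregs of tissues and of effector type. Il18r1 and Il18rap encode the ligand-binding chain and the accessory chain of the interleukin-18 receptor.

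The genes lie on the plus strand of mm10 between 40074079 and 40551705, a span of 478 kb with 6 protein-coding genes in the GENCODE M21 annotation, all of this receptor family. Il1r2 (ENSMUSG00000026073) spans 40074079 to 40125231 and Il1rl1 (ENSMUSG00000026069) spans 40429570 to 40465415. Il18r1 (ENSMUSG00000026070) follows from 40465552 to 40500854 and Il18rap (ENSMUSG00000026068) from 40515362 to 40551705. Only 136 bases separate Il1rl1 from Il18r1, and 14.5 kb separate Il18r1 from Il18rap. Il1r2 stands 304 kb upstream of Il1rl1, and Il1r1 and Il1rl2, which lie between them, were not analysed here. Of 19 protein-coding genes from 1 Mb before to 1 Mb after the cluster, the 4 members were the ones listed. The nearest other listed gene of the chromosome, Gm28437, was 15.5 Mb away. Counting listed genes in spans of the cluster's length from the start of each listed gene, this was the 1 span that held 4 or more. That count used a span length taken from the cluster itself and is a description.

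**Figure D1:**
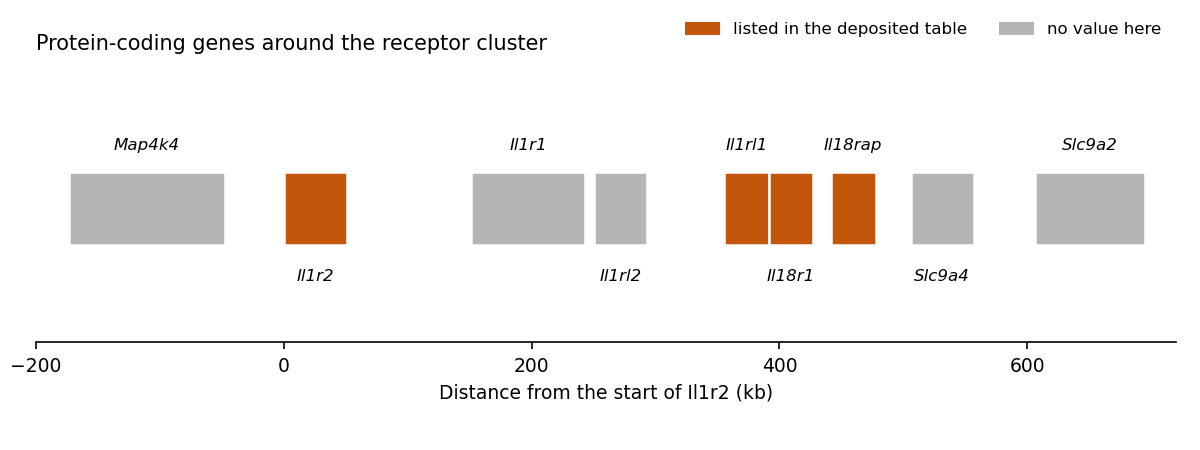
Protein-coding genes around the receptor cluster, drawn to scale as boxes along the distance in kb from the start of Il1r2. Orange boxes are genes listed in the deposited table and grey boxes have no value here. The 4 listed genes fall in 2 blocks, Il1r2 alone and then Il1rl1, Il18r1 and Il18rap side by side.

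The sequences before the start sites are shown because the members were lower together and because Il1rl1 and Il18r1 nearly touch. They come from RefSeq promoter windows of build GRCm38.p6, the assembly of mm10, and all 4 members matched, with 7 windows among them. Of these, 5 stretches are printed, 5′ to 3′ on the plus strand, each the longest run of bases of its window outside annotated exons. The first and second Il18r1 windows share the stretch printed, and that of the third Il18r1 window is not shown. Capitals mark matches to AGATAA or TGATAA (the core bound by GATA factors) or to CACGTG (an E-box), on either strand. The Il1r2 window belongs to a start at 40086093, inside the gene. GENCODE M21 gives Il1r2 4 start positions, the first at 40074079, and sequence before that one was not searched. Il1rl1 has a pair of windows 10.1 kb apart. The first is that of its upstream start and the second that of its downstream start. The Il18r1 stretch lies wholly between the end of Il1rl1 and the first start of Il18r1.
Il1r2, chr1:40085852-40085984: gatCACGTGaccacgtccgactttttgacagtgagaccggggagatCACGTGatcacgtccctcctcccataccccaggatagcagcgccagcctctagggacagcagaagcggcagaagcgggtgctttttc
Il1rl1 upstream start, chr1:40429320-40429569: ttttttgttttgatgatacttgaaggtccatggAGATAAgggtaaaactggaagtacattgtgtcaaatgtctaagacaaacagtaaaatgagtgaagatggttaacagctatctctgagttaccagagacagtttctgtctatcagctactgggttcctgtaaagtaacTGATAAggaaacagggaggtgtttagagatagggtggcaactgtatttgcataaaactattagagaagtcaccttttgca
Il1rl1 downstream start, chr1:40439379-40439626: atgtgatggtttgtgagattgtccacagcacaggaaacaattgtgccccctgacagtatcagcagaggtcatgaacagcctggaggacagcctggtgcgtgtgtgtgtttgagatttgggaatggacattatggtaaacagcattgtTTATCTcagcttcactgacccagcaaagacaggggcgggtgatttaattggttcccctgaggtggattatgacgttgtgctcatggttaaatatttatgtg
Il18r1, chr1:40465419-40465551: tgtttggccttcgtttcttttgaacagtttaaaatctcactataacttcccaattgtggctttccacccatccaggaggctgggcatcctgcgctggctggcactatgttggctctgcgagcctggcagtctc
Il18rap, chr1:40515112-40515361: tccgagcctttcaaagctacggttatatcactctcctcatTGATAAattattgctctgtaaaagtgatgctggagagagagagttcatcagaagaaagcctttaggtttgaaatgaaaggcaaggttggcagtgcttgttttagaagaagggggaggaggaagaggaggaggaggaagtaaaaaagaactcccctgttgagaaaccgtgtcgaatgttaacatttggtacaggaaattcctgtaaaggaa

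Over the 250 bases before each start site, a GATA core was found in 4 of the 7 member windows, against 16.6% of all 32851 RefSeq windows of that length. Positions below give the first base of a match relative to the start site. The upstream Il1rl1 window held AGATAA at -217 and TGATAA at -80. The downstream Il1rl1 window held its reverse complement TTATCT at -103, and Il18rap held TGATAA at -210. The Il1r2 match, TTATCA at -86, lies in an exon of another transcript and is not printed, and the 3 Il18r1 windows held 0. Il1r2 held CACGTG at -238 and at -195, a motif that 6.02% of all windows held and that was added to the search after its sequence was seen. TGTGGT, the core bound by RUNX factors, was found in 1 member window (the downstream start of Il1rl1, at -6, not printed) and in 14.05% of all windows. TGANTCA (AP-1, 6.75% of all windows) was found in 0 of the 7. A pattern for NF-kappaB was also searched, and a shorter form of it after hits had been seen. Neither is reported here. CG pairs in the 250 bases numbered 14 for Il1r2, 0 and 3 for the Il1rl1 starts, 3 to 7 for the Il18r1 starts and 4 for Il18rap, where the median of all windows was 6. G and C made up 51.2% of the bases for Il1r2, 37.6% and 46.4% for the Il1rl1 starts and 42% for Il18rap. They made up 40.8% to 56.4% for the Il18r1 starts, where the median of all windows was 52.4%. The shares of all windows were not matched for this composition, and the 7 windows partly overlap and are not independent. Enrichment was not tested, and a match says only that these letters are present.

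All 4 receptor genes were lower in YFP-positive than in YFP-negative Tregs, in both mouse numbers and with no overlap between the groups. The falls ranged from 2.41-fold for Il18r1 to 4.78-fold for Il1rl1 in group means of normalized counts (gene reads that the authors divided by a size factor per library). By limma on log2(normalized count + 1), with Benjamini-Hochberg adjustment over the 282 listed genes, 4 of 4 passed an adjusted p of 0.05 as lower. Of all listed genes, 69.5% passed in that direction and 100% passed in either. Groups did not overlap, with YFP-positive lower, in 69.5% as well. With the mouse number as a block, 4 of 4 passed, against 68.4% of listed genes called lower. Adjusted over the 14239 genes that the authors' p-values imply were tested, 4 of 4 passed, against 59.9%. The members' median log2 fold change in the authors' deposited table was -2.03, and the median over all 196 lower genes was -1.89.

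Il1r2, the decoy receptor gene, was counted at 1394 and 2421 in YFP-positive Tregs of mice 1 and 2 and at 7303 and 6095 in YFP-negative Tregs. Both YFP-positive libraries were below both YFP-negative ones, and the lowest YFP-negative value was 2.52 times the highest YFP-positive value. The means were 1907 ± 726 and 6699 ± 854 (SD, n = 2 each), and the log2 fold change was -1.86 ± 0.38 (SE) with limma adjusted p = 3.53e-05. With the mouse number as a block, the SE was 0.44 and limma adjusted p = 0.00589. The size of the fall differed between the mouse numbers. It was 5.24-fold in mouse 1 (95% exact interval 4.94 to 5.56) and 2.52-fold in mouse 2 (2.40 to 2.64). These intervals rest on the inferred reads, a unit that the few low values did not suffice to check, and cover counting error only. If that unit holds, those of mice 1 and 2 do not overlap. On the log2 scale the difference was -2.39 in mouse 1 and -1.33 in mouse 2. An antisense gene, Gm16894, lies within the Il1r2 gene on the other strand and shares 0 exon bases with it, although the strand setting of the counting is not given here.

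Il1rl1, the interleukin-33 receptor gene, was counted at 133 and 119 in YFP-positive and at 678 and 525 in YFP-negative Tregs. Libraries of 1 group lay close together and the groups were far apart, with the lowest YFP-negative value 3.95 times the highest YFP-positive value. The means were 126 ± 10.1 and 602 ± 108 (SD, n = 2 each), with a log2 fold change of -2.24 ± 0.37 and limma adjusted p = 1.51e-06. The fall was 5.10-fold in mouse 1 (4.22 to 6.20) and 4.42-fold in mouse 2 (3.61 to 5.47), with overlapping intervals. Among the members, this gene ranked first by p in the authors' deposited table, at place 21 of the 282. GENCODE M21 gives 5 Il1rl1 transcripts with 5 start positions, and counts per gene do not separate a membrane form from a soluble one.

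Il18r1, the ligand-binding chain gene of the interleukin-18 receptor, was counted at 372 and 552 in YFP-positive and at 883 and 1343 in YFP-negative Tregs. It had the smallest fall of the 4 and the narrowest gap between the groups, at 1.60 times. The means were 462 ± 127 and 1113 ± 325 (SD, n = 2 each), with a log2 fold change of -1.26 ± 0.34 and limma adjusted p = 0.000681. Within a mouse number the fall was nearly the same size, 2.37-fold in mouse 1 (2.10 to 2.69) and 2.43-fold in mouse 2 (2.20 to 2.69). Leaving out the YFP-positive library of mouse 1 gave a log2 fold change of -0.98, and adjusted p by limma was 0.0748, where the other alternatives gave 0.000427 to 0.0411.

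Il18rap, the accessory chain gene, was counted at 46.8 and 133 in YFP-positive and at 243 and 607 in YFP-negative Tregs. Mouse 2 was the higher of the pair in both groups, and the groups still did not overlap, with a gap of 1.83 times. The means were 89.7 ± 60.6 and 425 ± 258 (SD, n = 2 each), with a log2 fold change of -2.27 ± 0.44 and limma adjusted p = 2.09e-05. Within a mouse number the fall was 5.20-fold (3.77 to 7.31) and 4.58-fold (3.78 to 5.59). Leaving out the YFP-negative library of mouse 2 gave -1.61, and adjusted p by limma was 0.0866. Leaving out the YFP-positive library of mouse 1 gave -1.53. Over the other alternatives adjusted p ranged from 9.30e-08 to 0.0466.

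**Figure D2:**
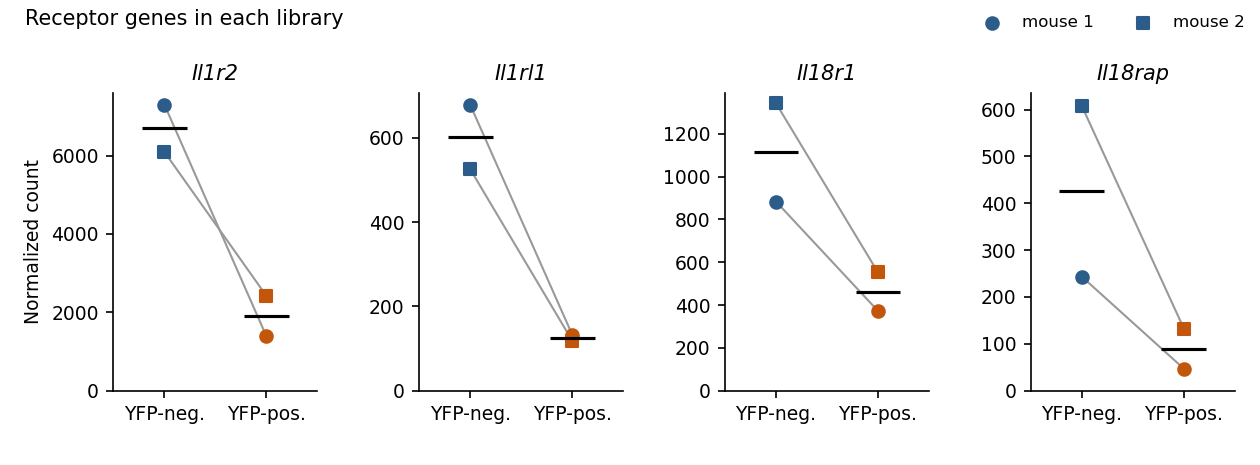
Normalized counts of the 4 receptor genes, each panel from 0, with circles for mouse 1, squares for mouse 2, grey lines joining libraries of the same mouse number and black bars for group means. In every panel both YFP-positive points lie below both YFP-negative points, and the lines cross for Il1r2 alone.

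**Figure D3:**
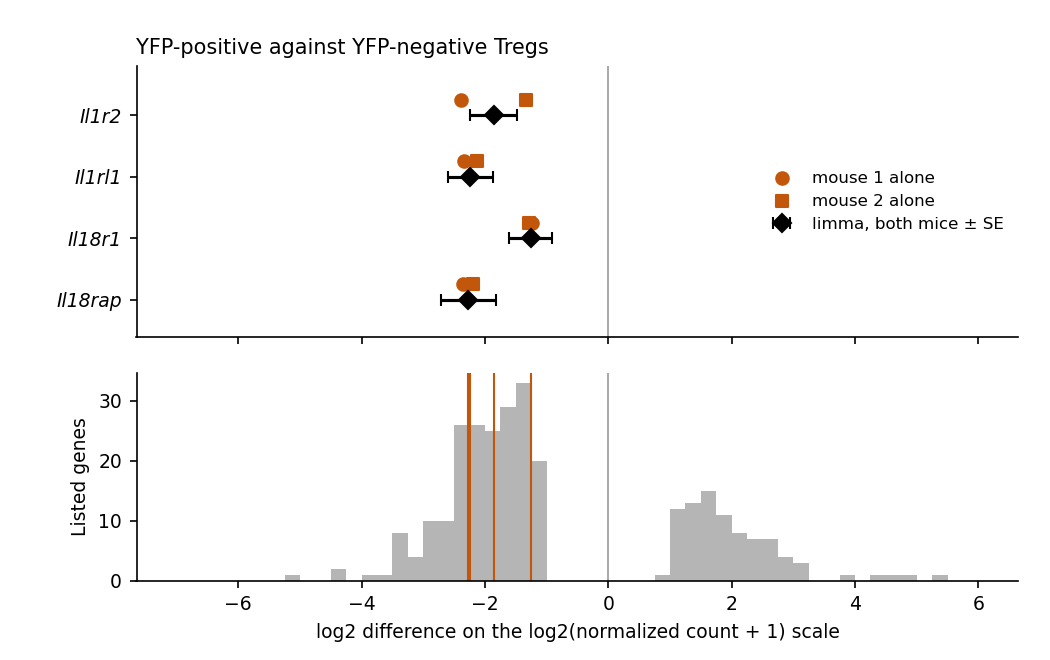
Upper panel: log2 difference, YFP-positive minus YFP-negative, on the log2(normalized count + 1) scale for each receptor gene, with limma estimates and SE as diamonds and each mouse alone as circles and squares. Lower panel: the number of listed genes by the same difference, with the 4 receptor genes as orange lines among the 196 lower genes and none of the listed genes near 0, because the list was selected.

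Members also differed in level. Per kilobase of the deposited gene length, Il1r2 stood at 730 and 1269 normalized counts per kb in YFP-positive and at 3827 and 3195 in YFP-negative Tregs. Il18r1 came next, with 77.3 and 115 against 183 and 279, and was below Il1r2 by 9.45 to 20.9 times in the 4 libraries. Il1rl1 had 19.3 and 17.2 against 98.4 and 76.2, and lay below Il18r1 in 4 of 4 libraries by 1.86 to 6.66 times. Il18rap had 6.93 and 19.6 against 36.0 and 90.0. Its order with Il1rl1 was not the same in all libraries, since it was the lower of the pair in mouse 1 and the higher in mouse 2, in both groups. By the mean of the YFP-negative libraries, Il1r2 ranked 11 of the 282 listed genes per kb, and Il18rap ranked 167. The deposited length covers the exons of all annotated transcripts, which for Il18rap include transcripts with a retained intron. Levels of 1 gene against another depend on that length.

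The chains of the interleukin-18 receptor did not keep the same ratio. Per kilobase, Il18rap was 19.6% and 32.3% of Il18r1 in YFP-negative Tregs of mice 1 and 2, and 8.97% and 17.1% in YFP-positive Tregs. By this measure, which depends on the deposited lengths, the accessory chain was the scarcer in every library. Its share was lowest in YFP-positive mouse 1. The log2 ratio was lower in YFP-positive Tregs by 1.11 in mouse 1 and by 0.91 in mouse 2, a mean difference of -1.01 (-0.55 without the YFP-positive library of mouse 1 and -0.65 without the YFP-negative library of mouse 2), with SDs of 0.65 and 0.50 (n = 2 each) within the groups. A two-sided exact permutation test gave p = 0.33, which is the smallest that 2 libraries against 2 can give. Il1rl1 against its neighbour Il18r1 showed a difference of similar size. The ratio per kb was 53.7% and 27.3% in YFP-negative and 24.98% and 15.02% in YFP-positive Tregs, with a log2 difference of -0.98 and the same exact permutation p = 0.33. Il1r2 against Il1rl1 gave a log2 difference of 0.38, with values of -0.05 in mouse 1 and 0.80 in mouse 2 and exact permutation p = 1. These were 3 ratios, and this unpaired permutation test cannot pass 0.05 for any of them. No model was fitted to the ratios, and the test does not use the mouse numbers.

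**Figure D4:**
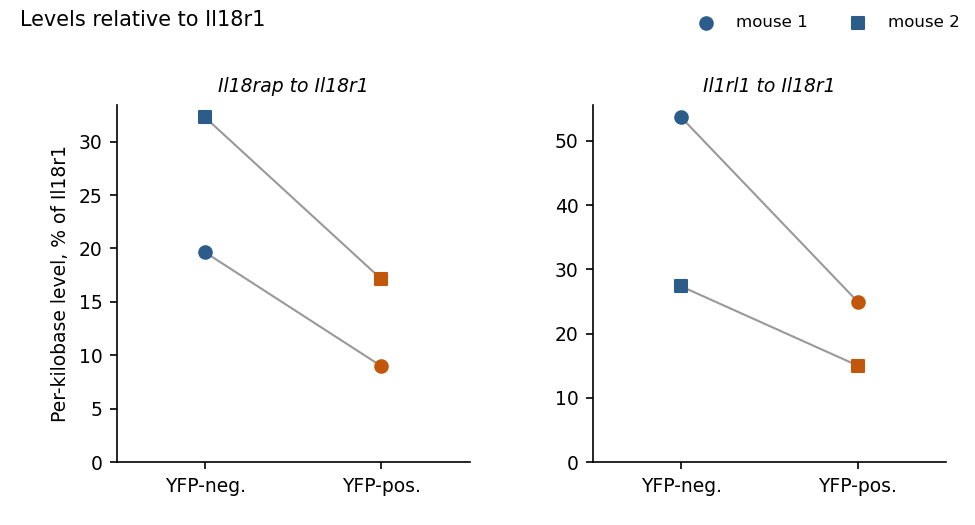
Per-kilobase level of Il18rap (left) and Il1rl1 (right) as a percent of Il18r1, with circles for mouse 1, squares for mouse 2 and lines joining a mouse number. Both YFP-positive values are below both YFP-negative values in each panel, and mouse 2 is above mouse 1 on the left and below it on the right.

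Libraries of mouse 2 held more of both interleukin-18 receptor chains than those of mouse 1, in both groups. Il18rap was 2.83 times as high in mouse 2 as in mouse 1 in YFP-positive Tregs and 2.50 times as high in YFP-negative Tregs. Il18r1 was 1.48 and 1.52 times as high in mouse 2. Il1rl1 was lower in mouse 2 in both groups (0.892 and 0.775 times), and Il1r2 was higher in mouse 2 among YFP-positive (1.74 times) and lower among YFP-negative Tregs (0.835 times). Of the 282 genes, 4 had a log2 difference over 1 in favour of mouse 2 in both groups, and they were Il18rap, Gzma, Raph1 and Nid2. Gzma, a granzyme gene of cytotoxic lymphocytes, was counted at 7.28 and 37.1 in YFP-positive and 109 and 253 in YFP-negative Tregs of mice 1 and 2.

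**Figure D5:**
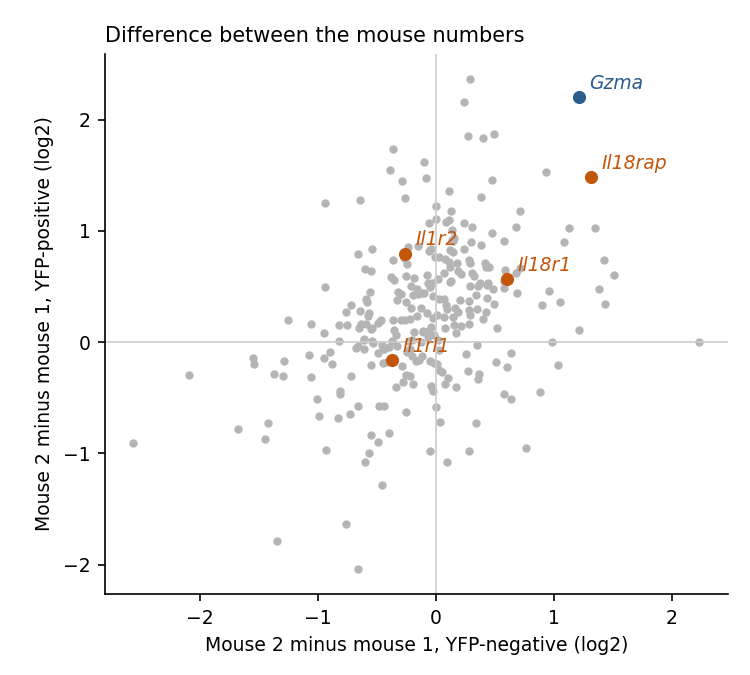
Log2 difference between mouse 2 and mouse 1 in YFP-negative (horizontal) and YFP-positive (vertical) Tregs, with each grey point 1 of the 282 listed genes. Il18rap and Gzma lie at the upper right, Il18r1 between them and the centre, and Il1r2 and Il1rl1 to the left of 0.

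Markers of other cells, among them some that could carry these receptors, were looked for in the same libraries. Of 12 natural killer and type 1 innate lymphocyte markers and of 4 CD8 T cell markers, Gzma was the 1 listed gene, and its log2 value fell by 3.23 ± 0.58 (limma adjusted p = 6.35e-06). Leaving out the YFP-positive library of mouse 1 gave -2.13. Outside those lists, Ctsw and Gzmb, also genes of cytotoxic lymphocytes, went in opposite directions. Ctsw rose by 1.72 ± 0.37 and Gzmb fell by 1.87 ± 0.34. Of 10 B cell markers, Igkc was listed, with 249 and 280 normalized counts in YFP-positive and 1503 and 1072 in YFP-negative Tregs, and it fell by 2.26 ± 0.34 (limma adjusted p = 3.68e-07). Cd72 and H2-Ob, genes outside that list that B cells also express, went the other way and rose by 1.56 ± 0.33 and 1.80 ± 0.33. Of 11 mast cell and basophil, 11 neutrophil and 13 macrophage and dendritic cell markers, 0 were listed, and they have no value here. That count covers these lists alone and does not show that such cells were absent. Genes outside the lists that myeloid cells also express were listed in both directions. Among them Mmp9 fell by 2.49 ± 0.40 and Ncf1 rose by 3.05 ± 0.51. Of 10 markers of conventional CD4 T cells, mostly of naive ones, 3 were listed, of which Igfbp4 and Bcl2 were higher and Cd40lg lower. Igfbp4 and Bcl2 did not pass once the YFP-positive library of mouse 1 was left out (limma adjusted p = 0.0533 and 0.0518). The 3 listed markers summed to 11125 and 8642 normalized counts in YFP-positive and 3978 and 4780 in YFP-negative Tregs. Cd40lg, which went the other way, made up 309 and 447 of these in YFP-positive and 823 and 1067 in YFP-negative Tregs. The part of any of these in the receptor values was not tested. In bulk libraries, fewer cells that carry a receptor and less of its RNA per cell cannot be told apart.

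Other genes of the pathway were looked up on the list of selected genes, which holds 1.98% of the 14239 genes that the authors' p-values imply were tested. Of 6 other receptors of the family, 12 ligands and soluble inhibitors and 16 receptor-proximal signalling genes, 0 were listed. Of 23 genes of the NF-kappaB and MAP kinase arm, 1 was listed, Jun, an AP-1 subunit gene. Jun was higher in YFP-positive Tregs, at 8934 and 6904 against 2673 and 2824, and rose by 1.52 ± 0.39 on the log2 scale (limma adjusted p = 0.000415). Of 23 other cytokine receptor and binding protein genes, Il9r was the 1 listed, at 41.6 and 45.6 against 218 and 149, and fell by 2.03 ± 0.47 (limma adjusted p = 0.000148). Il17rb, an interleukin-17 family receptor gene outside those 23 and named after its values were seen, was also listed, at 12.5 and 14.8 against 78.4 and 70.2, and fell by 2.36 ± 0.60 (limma adjusted p = 0.000367). A gene outside the list has no value here, so a count of 0 does not show that such genes were alike in both groups.

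Listed genes of the Treg types in which these receptors are known were lower. Of 20 genes of ST2-positive tissue Tregs, 10 were listed and 10 of 10 were lower, with a median log2 fold change of -1.73 in the authors' deposited table. Penk (proenkephalin), Klrg1 and Tigit (inhibitory receptors) fell by 2.49 ± 0.42, 2.41 ± 0.34 and 2.30 ± 0.36 by limma. Rora, a nuclear receptor gene, fell by 1.90 ± 0.39. Its log2 fold change was -1.17 once the YFP-negative library of mouse 1 was left out, and leaving out the YFP-positive library of mouse 2 ended the call (limma adjusted p = 0.0742). Of 16 genes of interleukin-18 and type 1 responses, 6 were listed and 6 of 6 were lower (median -2.001), among them Ifng, which fell by 2.41 ± 0.38, and the chemokine receptor genes Cxcr6 and Cxcr3, which fell by 2.34 ± 0.34 and 2.23 ± 0.37. Gzmb, a granzyme gene, fell by 1.87 ± 0.34. Of 14 follicular regulatory T cell genes, 4 were listed and 4 of 4 were lower (median -1.68). They were Sostdc1, Angptl2, Pdcd1 and Tox2, with log2 fold changes of -3.46 ± 0.72, -1.80 ± 0.35, -1.55 ± 0.36 and -1.51 ± 0.35. All are members of a list that the study selected on these samples and in which 69.5% of genes were lower. The gene sets themselves were chosen with earlier results of these data known, so the directions are not independent evidence.

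Patterns over the 4 libraries were compared by the root mean square difference of log2(normalized count + 1) after subtracting each gene's mean. Nearest to Il1r2 were Asb2, Ccr2 and Naprt (0.02, 0.05 and 0.09). Asb2 was counted at 284 and 514 in YFP-positive and 1504 and 1277 in YFP-negative Tregs, and Ccr2, a chemokine receptor gene, at 294 and 537 against 1562 and 1407. These rows repeat the crossing of the mouse numbers seen for Il1r2. Nearest to Il1rl1 were Nap1l3, Plek and Gpr160 (0.12 to 0.13), and nearest to Il18r1 were Cd200r1, Cd40lg and Plcb4 (0.05, 0.09 and 0.09). Nearest to Il18rap were Raph1, Nid2 and Slc7a10 (0.20, 0.30 and 0.33). The members were not each other's nearest genes. Il18r1 lay at a difference of 0.65 from Il18rap. That placed Il18r1 at rank 63 of 240 protein-coding genes by nearness to Il18rap, and Il18rap at rank 121 by nearness to Il18r1. Il18r1 also lay 0.65 from Il1rl1, the gene next to it. Il18r1 ranked 152 by nearness to Il1rl1, and Il1rl1 ranked 122 by nearness to Il18r1. With 4 libraries in 2 groups these distances are a description of the values.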

How the data were processed

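RNA was sequenced from 4 Treg libraries sorted to a stated purity above 95%. The submitters' processing notes name mm10 with DESeq2 1.16.1, featureCounts 1.5.0-p3, HISAT2 2.0.5 and StringTie 1.3.3b. The design text instead names DEGSeq 1.16.1. Strand setting and the handling of multiple matches are not given in these sources. The authors deposited signal values that are gene read counts scaled by library size factors, and their own log2 fold changes (YFP-positive over YFP-negative), p-values and adjusted p-values. The deposited gene lengths of the members equal their exon lengths in GENCODE M21. Every value was a whole multiple of 1 step per library, within 0.001 reads, which gives the inferred reads. Between 12 and 39 values per library were of up to 20 reads, too few to check that unit, so no count model was fitted and intervals from these reads hold only if it is right.

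All 282 genes were fitted with limma 3.58.1 (R 4.3.3) on log2(value + 1), with a variance trend, no block and Benjamini-Hochberg adjustment, after a test on simulated data. The simulated counts were unpaired, had a fixed dispersion and were not selected, so that test cannot speak for a list selected on these libraries. The log2(value + 1) scale understates differences of low genes. The prior variance comes from genes selected on these libraries, which can make SEs and p-values too small. Equal mouse numbers in the titles were taken as pairs. The mouse 2 minus mouse 1 differences of both groups correlated across genes, which are not independent (Pearson's r = 0.395, Spearman's rho = 0.411). Members and lists were chosen with earlier results of these data known, and 1 marker gene is not reported here. Named genes were the members, every listed gene of the pathway and marker lists, up to 4 per other list by the authors' log2 fold change, and the 3 nearest patterns per member. Il17rb, Mmp9, Ncf1, Cd72, H2-Ob and Ctsw were named after their values were seen. Intervals are exact (Clopper-Pearson, 95%) and cover counting error only.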

Additional observations from a re-analysis of the deposited data

How the results depend on the processing

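No alternative reversed a direction of the members, whose groups do not overlap in any of the 4, so leaving out 1 library could not turn it. Each receptor gene passed an adjusted p of 0.05 by limma under all 10 tested alternatives, except Il18r1 and Il18rap with 9 of 10 each. The 4 fits without 1 library gave log2 fold changes of -1.56 to -0.96 for Il18r1 (not passing without YFP-positive mouse 1) and -3.01 to -1.53 for Il18rap (not passing without YFP-negative mouse 2). They gave -2.26 to -1.46 for Il1r2 and -2.42 to -2.05 for Il1rl1. A library left alone in its group is assumed there to be as variable as the others. The mouse number as a replicate block changed no call of the members (adjusted p 0.00197 to 0.00589). The adjustment over 14239 genes was chosen after seeing the data. edgeR and DESeq2 on inferred reads were not run, because too few low values bear on the step. With 45 reads in the YFP-positive library of mouse 1, Il18rap is the member most limited by counting.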
